A study of Mus musculus with 18 samples.

Results

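Grb2, Traf5, Hcls1, Sphk1 and Agap1, a set of genes for receptor adaptors, a lipid kinase and an Arf regulator, were followed in mouse brain. They are 5 of the 51 features that the authors' processed brain table pairs with a gene name, out of 12439 features on the array, and were taken by symbol. That table lists genes that the authors selected on these same arrays by fold change per mouse over the controls, and its header gives limits of 2-fold and 0.5-fold. The stored-flour values below therefore describe the genes and cannot serve as independent evidence.

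The study set potato flour from conventional and organic cultivation, fresh or stored, beside a pesticide mixture and water. The animals were male BALB/cOlaHsd mice, aged 8 weeks on the first day, on standard chow and with a daily gavage over 20 days. Controls received water by the same gavage. The ADI group received 9 pesticides, each at its acceptable daily intake, which is the amount judged safe to take every day. The PC group received 30 mg per day of flour from conventionally grown tubers with skin and the PO group the same amount from organically grown tubers. PCS and POS were the corresponding flours under storage conditions. Each group had 12 mice, of which 3 gave brain RNA, 1 mouse per array. The brain was cut into cubes, and the labels do not say which region a sample holds.

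Of 18 arrays 15 were used. Water, ADI and PC kept 3 arrays each, and the other groups kept 2; an array is named here by its group and number (POS2). The column of PO2 equals the mean of PO3 and PCS1 in all 12439 features and was left out. The columns of PCS3 and POS3 were left out because they correlated negatively with every array used (r from -0.19 to -0.15 over features). POS3 is also labelled with day 27 where the others carry day 20. The 4 stored-flour arrays were the brightest before scaling, with 75th percentiles from 1531 to 1995.5 against 838.5 to 1079 on the other 11. Storage and whatever made these arrays brighter cannot be told apart. POS2 stands apart: it correlated with the other arrays used at r = 0.83 to 0.86, whereas these correlated with each other at r = 0.97 to 0.98. The main results for POS and for storage are given with and without it. The fit below shares its estimate of the spread over all groups, so POS2 also enters the standard errors and p-values of the other comparisons. None of 28 brain and blood cell markers is paired with a feature, so the tissue label was not checked against them, and none of 84 other genes listed for these pathways is paired either.

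Grb2 is an adaptor with SH2 and SH3 domains. It binds phosphotyrosines of activated growth factor receptors and brings the exchange factor Sos to Ras, which starts the MAP kinase cascade. In neurons the same route runs below neurotrophin receptors. Traf5 is an adaptor of the TNF receptor family that links receptors such as CD40 to NF-kappaB and JNK signalling. Hcls1, also called HS1, is the cortactin relative of blood cells, a substrate of Lyn and Syk kinases that binds branched actin; in brain tissue, microglia are the resident cells of blood lineage. Sphk1 makes sphingosine 1-phosphate, a lipid ligand of G protein-coupled receptors, and is the only lipid kinase of the set. Agap1 is a GTPase-activating protein for Arf proteins, and the human protein is known for its link to the AP-3 coat of endosomes.

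By the RefSeq table of assembly GRCm38.p6, all 5 probe accessions matched their symbols. Grb2 lies on chromosome 11 from 115644045 to 115708597 and Sphk1 on the same chromosome from 116530836 to 116536675. Traf5 lies on chromosome 1 from 191997203 to 192092599, Agap1 on chromosome 1 from 89454811 to 89895282 and Hcls1 on chromosome 16 from 36934983 to 36963214. Where a probe lies within its transcript was not analysed here. The 250 bases before the start of transcription are shown for the genes with 1 start in the RefSeq promoter table. Capitals mark GC boxes (GGGCGG), ETS sites (AGGAAGT), E-boxes (CACGTG) and AP-1 sites (TGANTCA), searched on both strands; no marked match overlaps another. The printed windows are chr1:89454561-89454810 on the plus strand, chr1:192092600-192092849 on the minus strand and chr16:36934733-36934982 on the plus strand, written 5′ to 3′ along the gene.
Agap1: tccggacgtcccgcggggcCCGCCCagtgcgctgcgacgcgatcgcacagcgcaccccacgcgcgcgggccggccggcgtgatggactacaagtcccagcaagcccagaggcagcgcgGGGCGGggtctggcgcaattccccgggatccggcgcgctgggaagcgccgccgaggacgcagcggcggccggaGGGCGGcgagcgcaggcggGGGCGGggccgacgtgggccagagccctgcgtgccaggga
Traf5: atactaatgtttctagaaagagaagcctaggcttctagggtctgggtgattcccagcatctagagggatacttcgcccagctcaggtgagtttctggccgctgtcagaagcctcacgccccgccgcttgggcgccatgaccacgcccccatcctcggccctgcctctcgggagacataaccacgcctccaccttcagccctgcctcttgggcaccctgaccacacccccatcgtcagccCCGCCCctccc
Hcls1: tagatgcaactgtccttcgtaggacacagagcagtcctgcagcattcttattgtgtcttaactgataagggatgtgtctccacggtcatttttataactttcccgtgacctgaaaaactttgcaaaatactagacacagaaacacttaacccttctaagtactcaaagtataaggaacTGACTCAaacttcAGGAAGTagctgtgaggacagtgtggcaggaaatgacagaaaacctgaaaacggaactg

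The Agap1 window held 4 GC boxes and had a GC content of 78.8%. The Traf5 window held 1 GC box, and the Hcls1 window held 1 ETS site and 1 AP-1 site at a GC content of 41.6%. Among 32851 promoter windows of this length, 32.7% held a GC box, 7.69% an ETS site, 6.02% an E-box and 6.75% an AP-1 site. For Grb2 the table has 2 starts and for Sphk1 it has 5. The windows of the most upstream starts in that table held none of these motifs. They were chr11:115699929-115700178 on the minus strand for Grb2 and chr11:116530850-116531099 on the plus strand for Sphk1. Both lie inside the gene spans given above, so the bases before the outer 5′ ends of these genes were not searched. The GC box was the only one of these motifs held by more than 1 of the printed windows, and a match describes letters, not a bound site.

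Across groups, scaled intensity was highest in POS and next in PCS for all 5 genes, and water was the lowest group for Grb2, Traf5 and Agap1. Scaled intensity is the array's intensity after each array was set to the same 75th percentile, and levels of different genes on this scale are not compared. No gene passed the test in any of 11 comparisons (limma fit over 12439 features, Benjamini-Hochberg adjusted p threshold 0.05). The test called no feature at all in these comparisons, that is 0% of the array. RNA was taken from whole pieces of tissue, so more cells of a type and more RNA per cell cannot be told apart.

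**Figure D1:**
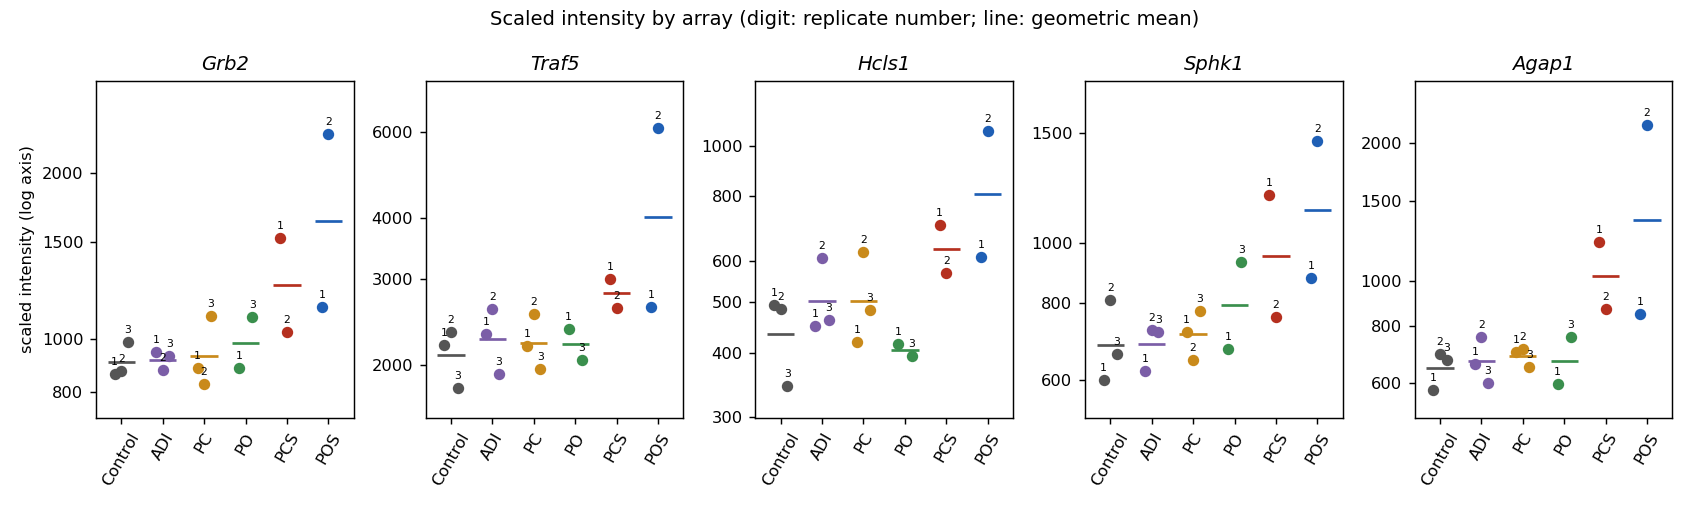
Scaled intensity (log axis) of Grb2, Traf5, Hcls1, Sphk1 and Agap1 on each of the 15 arrays used; points are single mice, digits their replicate number and lines the geometric mean of the group. PCS1 and POS2 are the 2 highest arrays in every panel, while PCS2 and POS1 lie near or just above the other groups.

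Grb2, the receptor tyrosine kinase adaptor, had scaled intensities of 864.2, 874.7 and 988.8 on the water arrays, 945.5, 876.8 and 930.2 on the ADI arrays and 885.0, 827.8 and 1098 on the PC arrays. It had 886.0 and 1094 on the PO arrays, 1528 and 1029 on the PCS arrays and 1143 and 2350.2 on the POS arrays. All 4 stored-flour arrays lay above every water array, but PCS2 lay below PC3 and PO3. Group by group, both PCS arrays lay above every water array for 13.2% of features and both POS arrays for 15.4%. The share for all 4 together was not counted. The group means were 909.2 ± 69.1 (SD, n = 3) in water, 1278 ± 353 (SD, n = 2) in PCS and 1746 ± 854 (SD, n = 2) in POS. The ADI mean was 917.5 ± 36.0 (SD, n = 3). The PC mean of 937.0 ± 143 (SD, n = 3) and the PO mean of 990.0 ± 147 (SD, n = 2) were slightly higher. The 4 groups without stored flour overlapped with each neighbour in the order of means.

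Grb2 differed from water by 0.47 ± 0.27 (SE) on the log2 scale in PCS and by 0.85 ± 0.27 in POS, folds of 1.38 and 1.81. Neither passed (limma, adjusted p 0.795 and 0.143). Without POS2 the POS difference was 0.33, and without PCS1 the PCS difference was 0.18. Averaged over cultivation, stored minus unstored flour was 0.58 ± 0.20, and 0.32 without POS2.

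Traf5, the TNF receptor adaptor, had scaled intensities of 2194, 2338 and 1795 on the water arrays, 2320.2, 2601 and 1921 on the ADI arrays and 2187, 2539.7 and 1965 on the PC arrays. It had 2369 and 2051 on the PO arrays, 3006 and 2621 on the PCS arrays and 2635 and 6113 on the POS arrays. Each stored-flour array lay above each of the other 11 arrays, by a margin as narrow as 2621 on PCS2 against 2601 on ADI2. The same order held for 1.87% of features. POS2 lay far above the rest. The group means were 2109 ± 281 (SD, n = 3) in water, 2281 ± 342 (SD, n = 3) in ADI and 2230.4 ± 290 (SD, n = 3) in PC. The PO mean was 2210.1 ± 225 (SD, n = 2). The means were 2814 ± 272 (SD, n = 2) in PCS and 4374 ± 2459 (SD, n = 2) in POS. In water, ADI and PC alike, replicate 2 was the highest and replicate 3 the lowest Traf5 array.

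The log2 difference of Traf5 from water was 0.42 ± 0.29 (SE) in PCS and 0.94 ± 0.29 in POS, folds of 1.34 and 1.91. Neither passed (limma, adjusted p 0.844 and 0.143), and without POS2 the POS difference was 0.33. The storage average was 0.60 ± 0.22, and 0.30 without POS2. With all 18 columns in the fit, where Traf5 had 117.5 on PCS3 and 173.5 on POS3, the storage average turned to -0.97 ± 0.84.

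Hcls1, the actin-binding Lyn substrate, had scaled intensities of 493.8, 484.6 and 344.9 on the water arrays, 449.6, 609.8 and 462.5 on the ADI arrays and 420.0, 624.7 and 483.6 on the PC arrays. It had 416.3 and 393.3 on the PO arrays, 706.2 and 570.8 on the PCS arrays and 612.2 and 1068 on the POS arrays. Every stored-flour array lay above every water and PO array, while ADI2 lay above PCS2, and PC2 above both PCS2 and POS1. Of all features, 13.2% had both PCS arrays and 15.4% both POS arrays above every water array, and 23.2% had both POS arrays above both PO arrays. The share for all of these together was not counted. The group means were 441.1 ± 83.4 (SD, n = 3) in water, 507.3 ± 89.0 (SD, n = 3) in ADI and 509.4 ± 105 (SD, n = 3) in PC. The PO mean was 404.8 ± 16.3 (SD, n = 2). The means were 638.5 ± 95.7 (SD, n = 2) in PCS and 840.2 ± 323 (SD, n = 2) in POS. Hcls1 was the only gene of the 5 whose PO mean lay below its water mean, a log2 difference of -0.11 ± 0.27 (SE) that did not pass (limma, adjusted p 1.00).

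The log2 difference of Hcls1 from water was 0.54 ± 0.27 (SE) in PCS and 0.89 ± 0.27 in POS, folds of 1.46 and 1.86 (limma, adjusted p 0.751 and 0.143). Without POS2 the POS difference was 0.49, the largest of the 5 genes under that setting. The storage average was 0.67 ± 0.20, and 0.47 without POS2. The 3 PC arrays lay above both PO arrays, as did 8.51% of all features, and PC minus PO was 0.31 ± 0.27 (limma, adjusted p 1.00).

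Sphk1, which makes sphingosine 1-phosphate, had scaled intensities of 600.4, 808.6 and 661.0 on the water arrays, 621.3, 723.3 and 717.6 on the ADI arrays and 717.2, 645.7 and 775.2 on the PC arrays. It had 672.8 and 931.3 on the PO arrays, 1193 and 758.1 on the PCS arrays and 876.6 and 1457 on the POS arrays. PCS2 fell among the water arrays, and PO3 lay above both PCS2 and POS1. The group means were 690.0 ± 107 (SD, n = 3) in water, 687.4 ± 57.3 (SD, n = 3) in ADI and 712.7 ± 64.9 (SD, n = 3) in PC. The PO mean was 802.1 ± 183 (SD, n = 2). The means were 975.8 ± 308 (SD, n = 2) in PCS and 1167 ± 410.5 (SD, n = 2) in POS.

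The log2 difference of Sphk1 from water was 0.47 ± 0.26 (SE) in PCS and 0.72 ± 0.26 in POS, folds of 1.39 and 1.65 (limma, adjusted p 0.762 and 0.143). Without PCS1 the PCS difference was 0.15, and without POS2 the POS difference was 0.36. The storage average of 0.47 ± 0.19 was the smallest of the 5 genes, and 0.28 without POS2.

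Agap1, the Arf GTPase-activating protein, had scaled intensities of 579.6, 692.5 and 671.7 on the water arrays, 658.6, 756.5 and 599.1 on the ADI arrays and 702.2, 710.8 and 648.3 on the PC arrays. It had 595.1 and 754.2 on the PO arrays, 1216 and 870.3 on the PCS arrays and 846.8 and 2188 on the POS arrays. The 4 stored-flour arrays lay above all 11 other arrays, as for 1.87% of features. The gap from 756.5 on ADI2 to 846.8 on POS1 was wider than that of Traf5 in proportion. The group means were 647.9 ± 60.1 (SD, n = 3) in water, 671.4 ± 79.5 (SD, n = 3) in ADI and 687.1 ± 33.9 (SD, n = 3) in PC. The PO mean was 674.6 ± 113 (SD, n = 2). The means were 1043 ± 245 (SD, n = 2) in PCS and 1517 ± 948 (SD, n = 2) in POS.

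Agap1 had the largest stored-flour difference of the set, 0.67 ± 0.32 (SE) in PCS and 1.08 ± 0.32 in POS on the log2 scale, folds of 1.59 and 2.11 over water (limma, adjusted p 0.751 and 0.143). Without POS2 the POS difference was 0.39, below the 0.49 of Hcls1. The storage average was 0.80 ± 0.23, above 98.3% of all features. Without POS2 it was 0.46, against 0.47 for Hcls1.

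**Figure D2:**
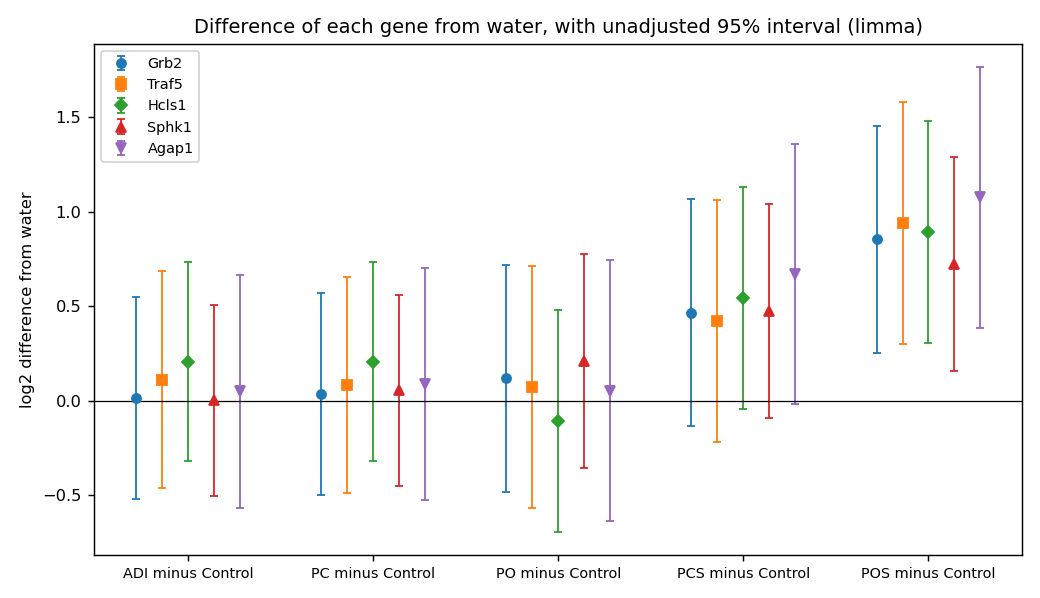
Log2 difference from water of the 5 genes in each treated group, with unadjusted 95% intervals of the limma fit on 15 arrays. The intervals of ADI, PC, PO and PCS include 0 for every gene, and those of POS lie above 0. In POS 11.6% of all features were higher at an unadjusted p under 0.05, and 27.7% had such a p in either direction.

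ADI, PC and PO asked what the pesticides or fresh flour did without storage. In ADI the 5 log2 differences from water ran from 0.0024 for Sphk1 to 0.21 for Hcls1, with a median of 0.049 against -0.0018 over all features. In PC they ran from 0.035 for Grb2 to 0.21 for Hcls1, with a median of 0.082 against -0.0076. In PO they ran from -0.11 for Hcls1 to 0.21 for Sphk1, with a median of 0.073 against -0.0030. No gene had all arrays of a group above all water arrays in any of the 3 groups, where every treated array lay above every water array for 2.32%, 2.54% and 8.95% of features. By limma 0 of 12439 features passed in ADI, PC or PO (smallest adjusted p 1.00, 0.0795 and 0.647), with 196 (1.58%), 170 (1.37%) and 285 (2.29%) at an unadjusted p under 0.05; none of the 5 genes was among them. The 95% interval of the largest of these differences, Sphk1 in PO, ran from -0.36 to 0.78, so a change of that size was not detectable in this fit. The spread behind the interval is shared over all groups and so includes that between POS1 and POS2. Same-numbered water, ADI and PC arrays deviated together, so they were also compared pair by pair. Traf5 was higher in ADI than in water in 3 of 3 pairs, by 0.081 to 0.15 on the log2 scale, as 10.8% of features were higher in every pair. The other genes were higher in 2 of 3 pairs in ADI. In PC each of the 5 genes was higher in 2 of 3 pairs, where 11.4% of features were higher in every pair. With the replicate number as a block the limma fit gave Traf5 in ADI a difference of 0.11 ± 0.23 (SE), with an adjusted p of 1.00.

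Stored conventional flour was set against water and against fresh conventional flour. The median log2 difference of the 5 genes from water was 0.47, against -0.022 over all features and 0.58 over the other 46 named genes. Both PCS arrays lay above every water array for 4 of the 5 genes, Sphk1 being the exception, as did 13.2% of features and 35 of the other 46 named genes. Against PC the median was 0.42, and both PCS arrays lay above all PC arrays for Traf5 and Agap1, against 13.9% of features. By limma 0 features passed in either comparison (smallest adjusted p 0.205 and 0.679), with 829 (6.66%) and 672 (5.40%) at an unadjusted p under 0.05; none of the 5 genes was among them. The adjusted p of the 5 genes against water ran from 0.751 to 0.844 in this fit, whose spread includes POS2. In a fit of only the PCS and water arrays it ran from 0.497 to 0.553 (limma). With no scaling between arrays all 5 genes passed against water, with log2 differences from 1.39 to 1.64, but so did 70.4% of all features. Against PC they passed with 52.8% of features in that fit.

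Stored organic flour was set against water and against fresh organic flour. The median log2 difference of the 5 genes from water was 0.89, against 0.042 over all features and 0.80 over the other 46 named genes. Both POS arrays lay above every water array for all 5 genes, as did 15.4% of features and 41 of the other named genes. All 5 had an unadjusted p under 0.05 and were higher, as were 11.6% of features. Against PO the median was 0.86, and 4 of the 5 genes, Sphk1 being the exception, had both POS arrays above both PO arrays, against 23.2% of features. By limma 0 features passed in either comparison (smallest adjusted p 0.0614 and 0.126), with 3451 (27.7%) and 3029 (24.4%) at an unadjusted p under 0.05. Against PO, 4 of the 5 genes had an unadjusted p under 0.05 and were higher, as were 11.2% of features. With no scaling all 5 passed together with 59.6% of features against water and 43.0% against PO.

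These POS values were smaller without POS2. The differences of the 5 genes from water then ran from 0.33 to 0.49 and those from PO from 0.15 to 0.60; against water the adjusted p was 0.967 for each (limma). POS1 alone lay above every water array for all 5 genes, as did 21.3% of features. Without POS1, so that POS2 stood alone for the group, they ran from 1.09 to 1.76 and all 5 genes passed, as did 41.0% of all features. All 5 then also passed against PO, with 38.7% of features. A lone array is assumed in these fits to vary like the other groups.

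Over both cultivations, stored minus unstored flour had a median of 0.60 over the 5 genes, against -0.0052 over all features. Traf5 and Agap1 had all 4 stored-flour arrays above all 5 PC and PO arrays, against 4.69% of features and 28 of the other 46 named genes. They also lay above all 11 other arrays, against 1.87% of features, or 2.32% without POS2, where both genes still did. By limma 0 features passed for the storage average (smallest adjusted p 0.0770), with 2683 (21.6%) at an unadjusted p under 0.05 in either direction. All 5 genes were among them and were higher, and the share of features that were higher was not counted. The adjusted p of the 5 genes ran from 0.137 for Agap1 to 0.203 for Sphk1. Over the other settings on the same 15 arrays, apart from the fit with no scaling, where all 5 genes passed together with 65.6% of features, the adjusted p ran from 0.107 to 0.622. Without POS1 all 5 passed, with log2 differences of at least 0.65, as did 36.6% of features. Without POS2 the range of the 5 differences was 0.28 to 0.47, and without both PCS1 and POS2 it was 0.12 to 0.39.

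**Figure D3:**
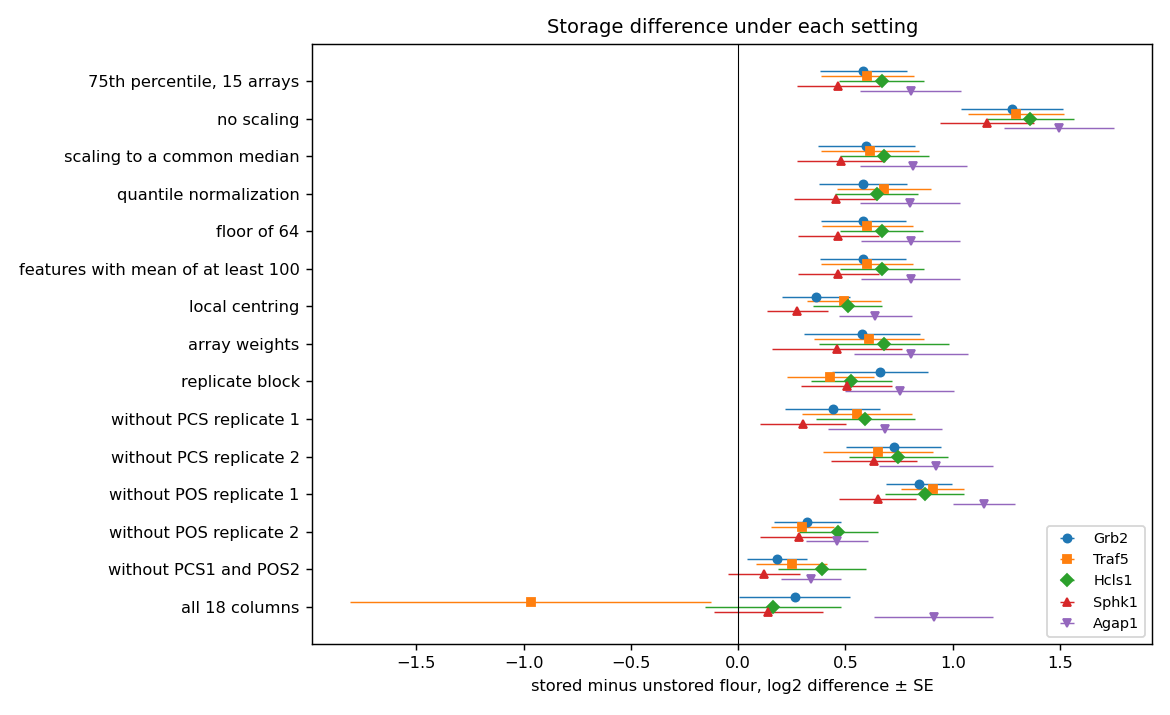
Storage average (PCS minus PC and POS minus PO, log2, with SE) of the 5 genes under each setting of the processing. The values are positive in every setting shown except for Traf5 when all 18 columns are fitted, at -0.97.

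Without storage the arrays of conventional and organic flour overlapped for 4 of the 5 genes, and with storage for all 5. For Hcls1 every PC array lay above both PO arrays, by a margin as narrow as 420.0 against 416.3. The same held for 8.51% of features, and no conclusion on cultivation is drawn from it. Both PCS arrays lay above both POS arrays for 10.8% of features. PC minus PO ran from -0.16 for Sphk1 to 0.31 for Hcls1 (limma, adjusted p 1.00 for each). PCS minus POS ran from -0.52 for Traf5 to -0.25 for Sphk1 (limma, adjusted p from 0.438 to 0.669). Without POS2 all 5 of these turned positive, from 0.053 to 0.28. Without POS1 Grb2, Traf5 and Agap1 passed on the negative side, as 31.8% of features passed in either direction. The storage effect in conventional minus that in organic flour ran from -0.66 ± 0.40 (SE) for Hcls1 to -0.093 ± 0.38 for Sphk1, and no gene passed (limma, smallest adjusted p 0.691). Without POS2 it turned positive for 4 of the 5 genes and ran from -0.26, for Hcls1, to 0.27, for Sphk1, and none passed. Without POS1 Traf5 and Agap1 passed, at -1.13 and -1.12, as did 23.5% of features. By limma 0 features passed for PC minus PO, PCS minus POS and this interaction, with 169 (1.36%), 1676 (13.5%) and 509 (4.09%) at an unadjusted p under 0.05; none of the 5 genes was among them.

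The stored-flour arrays differed among themselves. PCS1 and POS2 were the 2 highest of the 15 arrays for each of the 5 genes. The same held for 38 of the other 46 named genes and for 9.19% of all features. Relative to the mean of the water arrays, the 5 genes lay from 0.52 to 0.91 higher on PCS1 and from 1.09 to 1.76 higher on POS2 on the log2 scale. On PCS2 they lay from 0.15 to 0.43 higher and on POS1 from 0.33 to 0.49. The rank of the genes also differed between mice: Agap1 was highest on PCS1, PCS2 and POS2 and Hcls1 on POS1.

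Features numbered next to the 5 genes moved on POS2 as well. The median deviation of the 98 to 100 unlisted features around each gene, 50 on either side, was 0.44 to 0.58 from water on POS2. On PCS1 it was 0.051 to 0.19, on PCS2 0.015 to 0.091 and on POS1 0.011 to 0.077. Over all features the median POS difference from water was 0.042 with both POS arrays. The median over all features on POS2 alone was not computed, and whether the shift was local was not tested. On POS2 9.41% of all features lay at least 2-fold above and 20.0% at most 0.5-fold of water, where on the other stored-flour arrays these shares were 0.651% to 1.06% and 1.09% to 2.53%. In deviation from water, Agap1 exceeded 99.2% and Traf5 98.2% of features on POS2, and Sphk1 92.7%. The authors listed these genes by fold change on these arrays, so such ranks describe them and are no independent evidence. With the local deviation of each array removed, the POS difference from water ran from 0.43 for Sphk1 to 0.75 for Agap1 and the storage average from 0.27 to 0.64, and none passed (limma, adjusted p from 0.169 to 0.200 for POS).

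**Figure D4:**
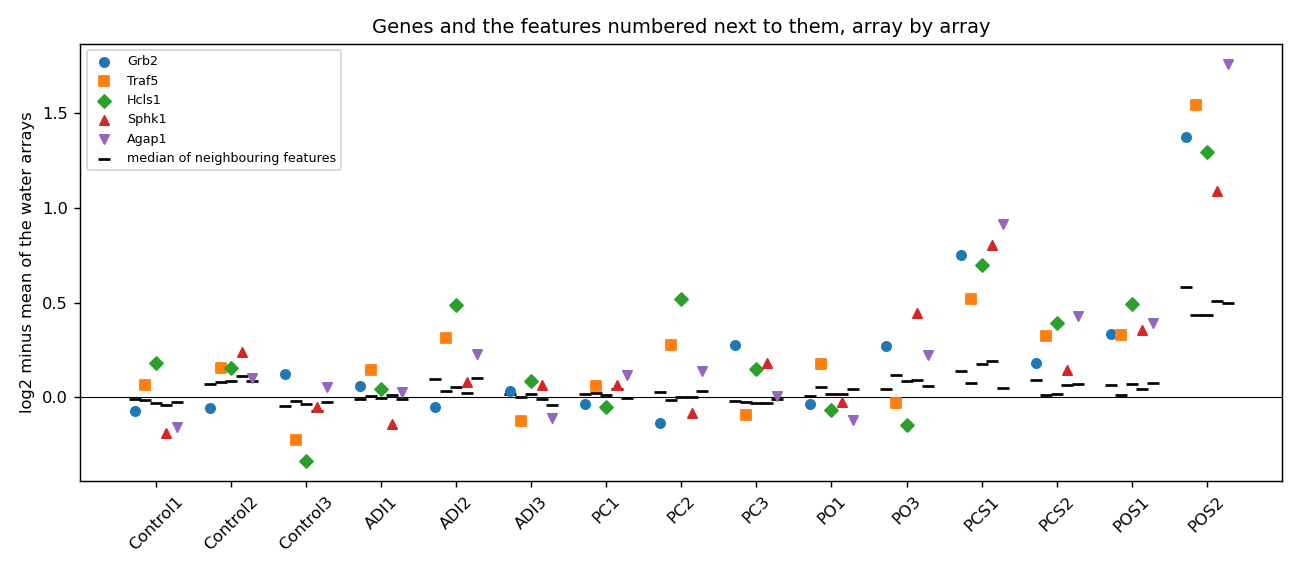
Log2 scaled intensity minus the mean of the water arrays for the 5 genes on each array (coloured markers) and the median of the unlisted features numbered next to each gene (black dashes). On POS2 the neighbours lie at 0.44 to 0.58 and the genes at 1.09 to 1.76, while on the other arrays the neighbours reach at most 0.19.

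Among themselves the genes correlated less closely once the stored-flour arrays were set aside. Over all 15 arrays the 10 pairs correlated at r = 0.70 to 0.93 on the log2 scale, with a median of 0.87. Over the 14 arrays without POS2 they correlated at r = 0.32 to 0.86, with a median of 0.68. Over the 11 arrays of water, ADI, PC and PO the 10 pairs had a median r of 0.16. Traf5 and Hcls1 had r = 0.72, Grb2 and Sphk1 r = 0.57 and Sphk1 and Agap1 r = 0.53. Grb2 and Traf5 had r = -0.68 and Grb2 and Hcls1 r = -0.52. The remaining pairs lay from -0.19 to 0.29. How other features correlate over these arrays was not analysed here. The arrays highest in Grb2 among these 11, PC3 and PO3, were below their group mates in Traf5. The points share array and replicate number, and the values are a description without a test.

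**Figure D5:**
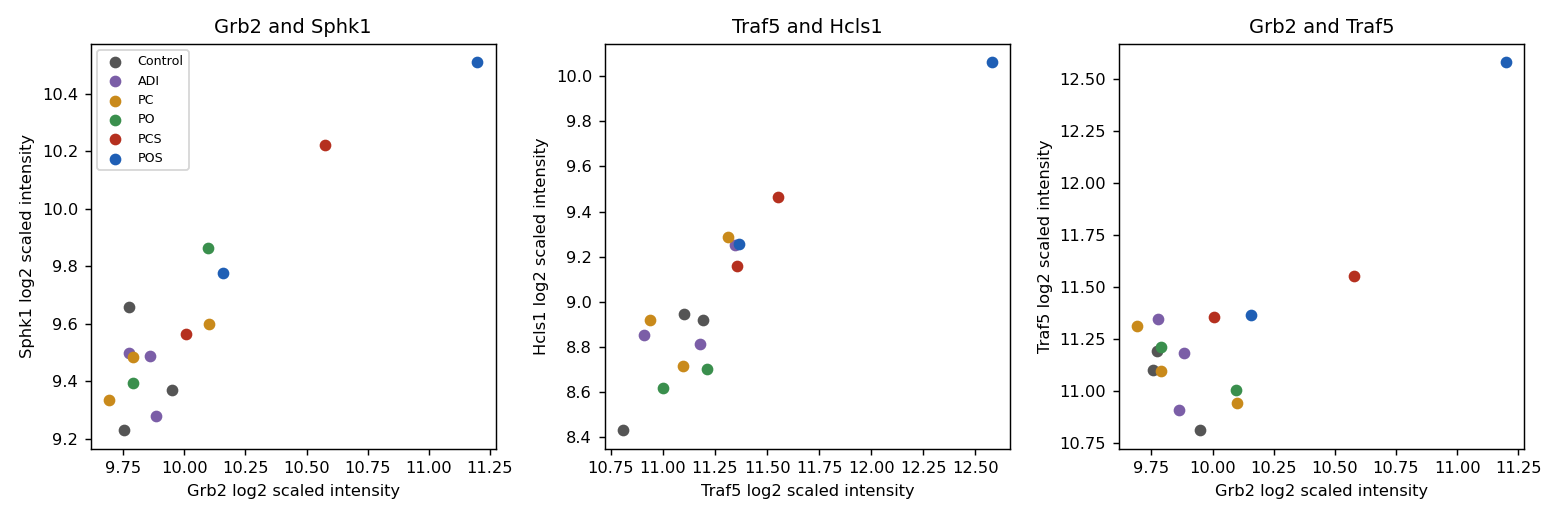
Log2 scaled intensity of Grb2 against Sphk1, Traf5 against Hcls1 and Grb2 against Traf5, one point per array, coloured by group. PCS1 and POS2 lie at the upper right of all panels, and among the 11 arrays of water, ADI, PC and PO the slope is upward in the first panel and the second and downward in the last.

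Of the other 50 named genes, the 3 whose log2 values followed each gene most closely over the 15 arrays were named. Agap1 was followed by Xrcc2, a DNA recombination repair gene (r = 0.97), Acadl, a fatty acid oxidation enzyme (r = 0.96), and Sh3gl2, endophilin A1 (r = 0.96). Traf5 was followed by Myf5, a muscle transcription factor (r = 0.97), Acadl (r = 0.96) and Gpsm3, a G protein regulator (r = 0.96). Hcls1 was followed by Trav3, a T cell receptor segment (r = 0.97), Myf5 (r = 0.94) and Tbk1, a kinase of innate immune signalling (r = 0.92). Grb2 was followed by Agap1 (r = 0.93), Sox13, a transcription factor (r = 0.93), and Sphk1 (r = 0.92), and Sphk1 by Fank1 (r = 0.94), Grb2 (r = 0.92) and Sox13 (r = 0.92). Without POS2 these values ran from 0.79, for Grb2 and Agap1, to 0.93, for Hcls1 and Trav3. The order of likeness then changed: for Agap1, Sh3gl2 ranked 1, Xrcc2 9 and Acadl 11, for Grb2, Agap1 ranked 5, and for Traf5, Acadl ranked 4 and Gpsm3 6. The 3 genes closest to Hcls1 and to Sphk1 stayed the closest 3. These genes were all listed by the authors for their values on the stored-flour arrays.

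The authors placed Grb2, Hcls1, Sphk1 and Agap1 among 23 genes related to carcinogenesis and Traf5 among 4 genes of immunity and inflammation. These groups come from literature and databases, per the file header, and hold no measurement.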

How the data were processed

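Brain RNA labelled with Cy3 was hybridised to one-colour Agilent arrays. The authors deposited intensity values of 18 arrays, read with Agilent Feature Extraction per the submitters' processing notes; the sources used here do not state the background correction or how features were chosen. The values are linear, reach 65535 and include some at or below 0, so no scaling between arrays was assumed. The fold columns of the authors' table were not used; its feature numbers gave the gene names.

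Each array was multiplied to reach the same 75th percentile, any value under 16 was replaced by 16 and log2 was taken; 8 to 40 features per array were set to 16, and 145 on POS2. A single fit of 6 group means over 15 arrays used limma 3.58.1 in R 4.3.3 (lmFit, eBayes), with Benjamini-Hochberg adjustment over 12439 features. Flags for detection or saturation were not analysed here. The number of arrays limits the precision. On simulated data, with 100 features changed at each fold size, the fit called 44% of 2-fold and 75% of 4-fold changes for PCS against water. The simulated noise was normal and independent between arrays. For each feature it had the residual spread of the fit on 15 arrays, the same on every array. For POS against water it called 34% and 85%. False calls were 7 for PCS and 8 for POS. PCS and POS kept the same number of arrays, so the gaps between their shares are not read as a difference in detection. Whether these shares hold for arrays that vary like POS2, vary unequally or deviate together was not tested.

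The design assumed no pairing. Same-numbered arrays of water, ADI and PC deviated together, which pairs them by the data. The r ran from 0.21 to 0.33 for water and ADI and from 0.15 to 0.30 for water and PC. The 2 pairs of water and PO had r from 0.091 to 0.19, and PO was not compared pair by pair. Those of water and PCS did not deviate together (r from -0.13 to 0.040), nor those of water and POS (r from -0.0014 to 0.011). Samples were placed in groups by title. The text describes the 5 genes and, for each, the 3 of the other 50 features with a gene name that had the highest correlation. The genes and lists were chosen with earlier results of these data known. Alternatives changed the scaling, floor, filter, weights, block and arrays.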

Additional observations from a re-analysis of the deposited data

Results flagged for a closer look

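Values on the 3 columns left out of the fit were set against the highest water array, on the same scale. On PO2 all 5 genes lay above it, with scaled intensities of 1391 for Grb2 (highest water array 988.8), 2703 for Traf5 (2338), 604.9 for Hcls1 (493.8), 1113 for Sphk1 (808.6) and 1068 for Agap1 (692.5). This column equals the mean of PO3 and PCS1 in all 12439 features. Agap1 also lay above every water array on PCS3, at 1917, and on POS3, at 1824. Grb2, Hcls1 and Sphk1 lay below the highest water array on PCS3 and POS3, and Traf5 lay far below all water arrays, at 117.5 and 173.5. PCS3 and POS3 correlated with each other at r = 0.95 over features and negatively with all arrays used. Their values are therefore not read as levels of these genes.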

How the results depend on the processing

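Results were recomputed under 13 other settings and with each of 15 arrays left out, in 11 comparisons. Of 715 values of the 5 genes under the settings, 657 kept direction and side of the threshold, 33 changed sign and 25 newly passed, all with no scaling; with arrays left out 766 of 825 kept both. Unless a value or the setting itself shows it, the cause was not tested. Counts are features with adjusted p under 0.05 by limma, where the fit gave 0.
With no scaling the counts were 8756 for PCS against water, 7412 for POS against water, 6562 for PCS minus PC, 5347 for POS minus PO and 8165 for the storage average, and the medians of the 5 genes were 1.44, 1.66, 1.19, 1.48 and 1.29; Hcls1 turned to 0.043 in PO against water and Sphk1 to 0.057 in the interaction. With a common median POS against water had 1 feature, Sphk1 in ADI was -0.0041 and Traf5 in PC minus PO -0.00077. With quantile normalization there were 3 for POS against water, 2 for POS minus PO and 2 for the storage average, and Sphk1 in ADI was -0.0018. A floor of 64 gave 2 for PCS against water, 5 for POS against water, 1 for PCS minus PC and 4 for the storage average, and a minimum mean of 100 gave 1 for POS against water.
With array weights PC against water had 2 and PCS against water 5, and Traf5 in PC minus PO was -0.0047. A trended and robust fit gave 1 for PCS against water, 5 for POS against water and 1 for the storage average, and a fit of only the groups compared gave 1 for PCS against water. Local centring turned Grb2 in ADI to -0.013, Sphk1 in ADI to -0.019 and Agap1 in PO to -0.013.
With the replicate number as a block PCS against water had 2 features, Hcls1 in PO was 0.011 and PC minus PO was -0.12 for Traf5 and -0.044 for Agap1; the block changed no call of the 5 genes. With the replicate block and without POS2 there were 65 for PCS against water, 40 for PCS minus PC and 68 for the storage average. The medians were then 0.41 for POS against water, 0.29 for POS minus PO, 0.12 for PCS minus POS and 0.22 for the interaction. PC minus PO was -0.061 for Traf5, PCS minus POS was 0.22 for Grb2, 0.053 for Traf5, 0.12 for Sphk1 and 0.26 for Agap1, and the interaction was 0.22 for Grb2, 0.11 for Traf5, 0.25 for Sphk1 and 0.24 for Agap1.
With all 18 columns the medians were 0.40 for POS against water, 0.26 for POS minus PO, 0.16 for the storage average and -0.056 for the interaction. Traf5 turned to -1.10 in PCS and -0.57 in POS against water, -1.19 in PCS minus PC, -0.74 in POS minus PO, -0.97 in the storage average and -0.089 in PC minus PO. Hcls1 in PO was 0.088, Agap1 in PC minus PO -0.19, and the interaction 0.0047 for Grb2 and 0.23 for Sphk1.
Without both PCS1 and POS2, a choice made after seeing the data, there was 1 feature for ADI against water, 2 for PCS against water, 2 for PCS minus PC, 1 for POS minus PO and 1 for the storage average. The medians were 0.36 for POS against water, 0.26 for POS minus PO and -0.054 for the interaction, and Agap1 was 0.040 in PCS minus POS and 0.0042 in the interaction.
With single arrays left out, counts ran from 0 to 4547 for the storage average, 5102 for POS against water, 4812 for POS minus PO, 3954 for PCS minus POS and 2929 for the interaction, each highest without POS1. They ran from 0 to 1 for PC against water and from 0 to 2 for PO against water, PC minus PO, PCS against water and PCS minus PC. Medians ran from 0.36 to 1.37 for POS against water, 0.26 to 1.40 for POS minus PO, -0.91 to 0.12 for PCS minus POS and -1.06 to 0.22 for the interaction, the ends being the fits without POS2 or POS1.
In ADI Grb2 ran from -0.020 to 0.077, Sphk1 from -0.092 to 0.12, Agap1 from -0.040 to 0.13 and Traf5 from -0.00092 to 0.23. In PC Sphk1 ran from -0.041 to 0.17, Traf5 from -0.030 to 0.17 and Grb2 from -0.084 to 0.12. In PO Agap1 ran from -0.12 to 0.22, Traf5 from -0.039 to 0.18, Grb2 from -0.035 to 0.27 and Sphk1 from -0.025 to 0.44. In PC minus PO Grb2 ran from -0.23 to 0.070, Traf5 from -0.095 to 0.11, Agap1 from -0.14 to 0.21 and Sphk1 from -0.39 to 0.079. In PCS minus POS Sphk1 ran from -0.62 to 0.12, Grb2 from -0.91 to 0.13, Traf5 from -1.12 to 0.091, Hcls1 from -0.75 to 0.053 and Agap1 from -1.09 to 0.28. In the interaction Sphk1 ran from -0.46 to 0.27, Grb2 from -0.82 to 0.22, Traf5 from -1.13 to 0.082 and Agap1 from -1.12 to 0.25.
The files hold no background measure per feature, so what signal over background limits could not be judged.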
